A study of Mus musculus with 10 samples.

Results

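Macrophages that had not engulfed apoptotic cells (Eff-) were compared between skin wounds and culture, using 5 of the 10 libraries of the series. The 5 were chosen by their labels, as the 3 wound Eff- and the 2 culture Eff- libraries, with no measured value used. The wound cells were labelled as macrophages of skin, from wounds taken 3 days after injury in LysMCreER/mTmG mice that had received tamoxifen for 6 days. In these mice a tamoxifen-activated Cre recombinase, expressed from the lysozyme M locus of myeloid cells, switches a membrane reporter from a red to a green fluorescent protein. The culture cells came from wild-type mice. Their bone marrow monocytes were grown for 7 days with GM-CSF, a growth factor that yields macrophage-like and dendritic-like cells together, and the labels list 12 h with apoptotic fibroblasts. The columns of the culture Eff- libraries carry the letters NOAC, so whether these cells had met apoptotic cells is unclear. No label gives the age or the number of animals. Whether replicates came from different animals or dishes is not stated, and p-values therefore reflect nothing beyond the variation among these libraries, part of which may be technical. Tissue, genotype, tamoxifen and count table all separate the same 3 libraries from the same 2 and cannot be told apart.

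Blood monocytes enter a skin wound within days of injury and become macrophages that first release inflammatory cytokines and later growth factors for repair. The wound is poor in oxygen and rich in neutrophils, dying cells, damaged matrix and microbial products. In culture with GM-CSF, marrow progenitors divide, turn on the lipid-handling programme associated with the receptor PPAR gamma, and part of the culture takes on dendritic cell features. Uptake of apoptotic cells uses receptors such as Mertk and Axl, and bridging proteins such as Mfge8, that bind phosphatidylserine on the dying cell.

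Total counts were 43867775, 44089595 and 39735437 in wound libraries 1, 2 and 3, and 17622740 and 22921618 in culture libraries 1 and 2. Culture library 1 stood apart from the rest. It had counts in 44836 genes, 14251 of them with 1 to 3 counts, whereas the other 4 libraries had counts in 17575 to 18932 genes. Over 3440 well-expressed genes the median absolute log2 difference was 0.206 to 0.271 between wound libraries, 0.892 between the culture libraries, 1.10 to 1.12 between culture 1 and the wound libraries, and 0.586 to 0.607 between culture 2 and the wound libraries. By this measure culture 2 was nearer to the wound libraries than to its own replicate, whereas by the Pearson correlation of log2 CPM across the 16576 tested genes, which are not independent replicates, it was nearer to culture 1 (0.878) than to the wound libraries (0.853 to 0.864). The results below therefore centre on large contrasts in which the wound and culture values do not overlap. Some of these are still smaller than the gap between the culture libraries, and values against each culture library are given where they part.

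Levels are CPM, the counts divided by the library size in units of 1e6, with library sizes scaled by the trimmed mean of M-values. A gene was called when its adjusted p was under 0.05 in edgeR's quasi-likelihood test, and a call was termed large when the fitted difference was also at least 4-fold and the wound and culture values did not overlap. Of 16576 tested genes, 567 were called higher (3.42%) and 584 lower (3.52%) in the wound, 6.94% in all. Large calls numbered 499 higher (3.01% of tested genes) and 410 lower (2.47%), together 5.48%. The wound and culture values did not overlap in 44.1% of tested genes. At least 4-fold without overlap, whatever the p, were 1203 genes higher (7.26%) and 1399 lower (8.44%). These shares of all tested genes are the background for every list count below. In 392 of the 499 higher genes the lowest wound library was at least 4 times the highest culture library, and in 172 of the 410 lower genes the reverse held. Large differences of more than 16-fold were found in 229 higher and 76 lower genes. Without wound library 1, 2 or 3, edgeR called 0 genes, which ended every call named here. The smallest adjusted p-values were then 0.062, 0.069 and 0.085, and 2980, 2830 and 2881 genes had an unadjusted p under 0.05. The 909 differences themselves were 4-fold or more, in the same direction, for 882, 891 and 870 genes without those libraries. Those genes were selected as 4-fold without overlap in the same libraries, so these counts are no independent check. With library totals as the only scaling, 30.9% of calls were higher against 49.3%, and the median log2 fold change of all genes was -0.58 against -0.12.

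**Figure D1:**
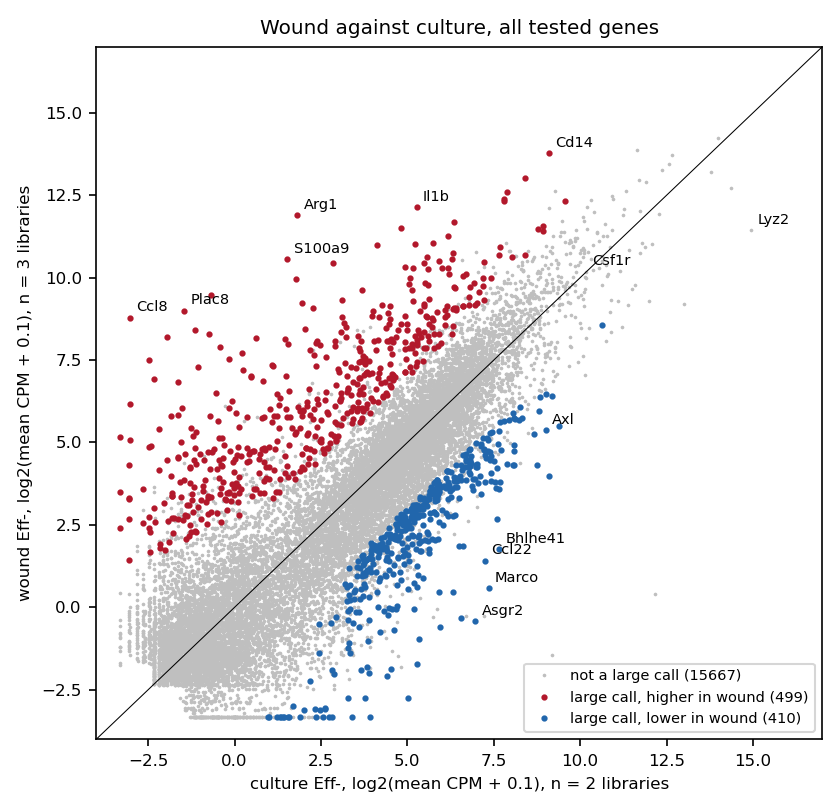
Mean level of each tested gene in culture Eff- (x axis, 2 libraries) and wound Eff- (y axis, 3 libraries), as log2(mean CPM + 0.1). The 499 red points are large calls higher in the wound and the 410 blue points large calls lower; the line marks equal levels, and Csf1r lies close to it.

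Both groups carried the genes that define macrophages. Csf1r, the receptor for macrophage colony-stimulating factor, was at 1124, 1270 and 1096 CPM in the wound libraries and at 415 and 1870 in the culture libraries. The wound values lay between the culture values, and the log2 fold change was 0.03 (SE 0.66; -0.23 with library totals only). Adgre1, which encodes the F4/80 antigen, was at 1008, 982 and 786 CPM against 265 and 904, and Cd68, a lysosomal membrane marker, at 1818, 1847 and 1875 against 411 and 1780. Neither passed the test. Of 24 macrophage identity genes tested, 3 were large calls higher in the wound and 0 lower (3.01 and 2.47% of all tested genes), with a median log2 fold change of 0.68. Those 3 were Cd14, Fcgr1 and Aif1. Cd14, the lipopolysaccharide co-receptor, had 14402, 12999 and 14649 CPM in the wound against 249 and 844 in culture, a 25.7-fold difference (edgeR, adjusted p = 0.030). Per length it was the most abundant protein-coding nuclear transcript of the wound cells. Fcgr1, the high-affinity Fc gamma receptor gene, was at 512, 347 and 304 CPM against 12.4 and 43.3. The summed share of the identity list was 3.32, 4 and 3.17% of counts in the wound libraries and 1.31 and 8.69% in culture 1 and 2, so the culture libraries lay on either side of the wound libraries. A lower level of a transcript in bulk samples cannot be told apart from fewer cells that express it.

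Lysozyme transcripts differed in pattern between the genes. Lyz2, whose locus drives the Cre transgene in the wound mice, was at 5.11, 8349 and 4.73 CPM in wound libraries 1, 2 and 3 and at 2743 and 60354 in culture 1 and 2. Wound library 2 thus overlapped the culture range, while wound libraries 1 and 3 were very low, with 198 and 160 counts. Its near-identical neighbour Lyz1 was at 1514, 611 and 852 CPM in the wound and 0.319 and 6.37 in culture, a large call (log2 fold change 8.22; edgeR, adjusted p = 0.029). Reads that fit both genes could be assigned to either, so both values are uncertain, and no label states whether the mice carried 1 or 2 copies of the Cre allele.

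Markers of other cell types differed between the groups, and their part in the results that follow was not tested beyond the values given. Among 26 neutrophil markers tested, 14 were large calls higher in the wound (background 3.01%) and none lower, with a median log2 fold change of 3.81. As a sum they took 1.36, 0.782 and 1.31% of counts in wound libraries 1, 2 and 3 and 0.183 and 0.339% in culture 1 and 2. S100a8, a subunit of calprotectin found in neutrophils and monocytes, was at 2092, 1392 and 2601 CPM against 9.97 and 24.4. Its partner S100a9 was at 1691, 967 and 1863 CPM against 3.79 and 1.77. Cxcr2, the neutrophil receptor for CXC chemokines, was at 416, 85.4 and 206 CPM against 1.12 and 0.177, highest in wound library 1. The granule genes of neutrophil precursors were near 0 in both groups, with Mpo between 0.0592 and 0.575 CPM and Elane between 0 and 0.708 CPM over the 5 libraries. The surface marker gene Ly6g was at 7.54, 3.77 and 6.80 CPM against 0.239 and 0.0885.

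Fibroblast markers had 7 large calls higher in the wound among 25 tested, none lower, and a median of 3.24. They took 0.0392, 0.201 and 0.0968% of counts in the wound libraries and 0.00491 and 0.00791% in culture, and 23 of the 25 were highest in wound library 2. Col3a1, a collagen chain, was at 74.0, 507 and 280 CPM against 1.72 and 1.15. Col1a1 was at 78.9, 445 and 272 CPM against 0.878 and 15.6 and did not pass (edgeR, adjusted p = 0.081). Erythroid and platelet markers had 4 large calls among 9 tested, all globin genes and all higher in the wound. Hba-a2, whose near-identical copy Hba-a1 may share its reads, had 12.7, 67 and 28.7 CPM in the wound and no count in culture, at least 590-fold higher against a floor of 3 counts over the culture group. Hbb-bs was at 42.4, 229 and 93.9 CPM against 0.199 and 0. Krt5 and Krt14, the keratins of basal epidermis, had 0 counts in all 3 wound libraries, and the whole keratinocyte list took 0.000645 to 0.00196% of wound counts. Of the 4 keratinocyte genes tested 0 were large calls, 3 had positive values, and the median was 0.52. At least 4-fold without overlap were 1 higher and 1 lower (7.26 and 8.44% of all genes). Of 10 endothelial genes tested 0 were large calls higher, and Vwf, which encodes von Willebrand factor, was a large call lower. The other 9 had positive values, 4 of them at least 4-fold without overlap (7.26% of all genes), and the list median was 2.73. Pecam1, an adhesion molecule of endothelium, platelets and leukocytes, was at 44.9, 54 and 47.9 CPM against 8.18 and 0.708 and did not pass (0.077). Of the muscle and adipocyte, T and NK cell, and mast cell and basophil lists none was a large call in either direction. Cd79b, an antigen receptor chain gene, was the 1 large call of the 4 B cell genes tested, at 15.6, 13.6 and 7.28 CPM against 0.957 and 0.354. Cd3e, which defines T cells, had 0 counts in the wound, while 7 of the 8 T and NK cell genes tested had positive values, with a median of 2.06 and a list share of 0.000267 to 0.00184% of wound counts. Prg2, an eosinophil granule gene, had no count in the wound and 0.758 and 12.3 CPM in culture, at least 237-fold lower in the wound against the same floor, and was the 1 large call of 6 eosinophil genes.

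**Figure D2:**
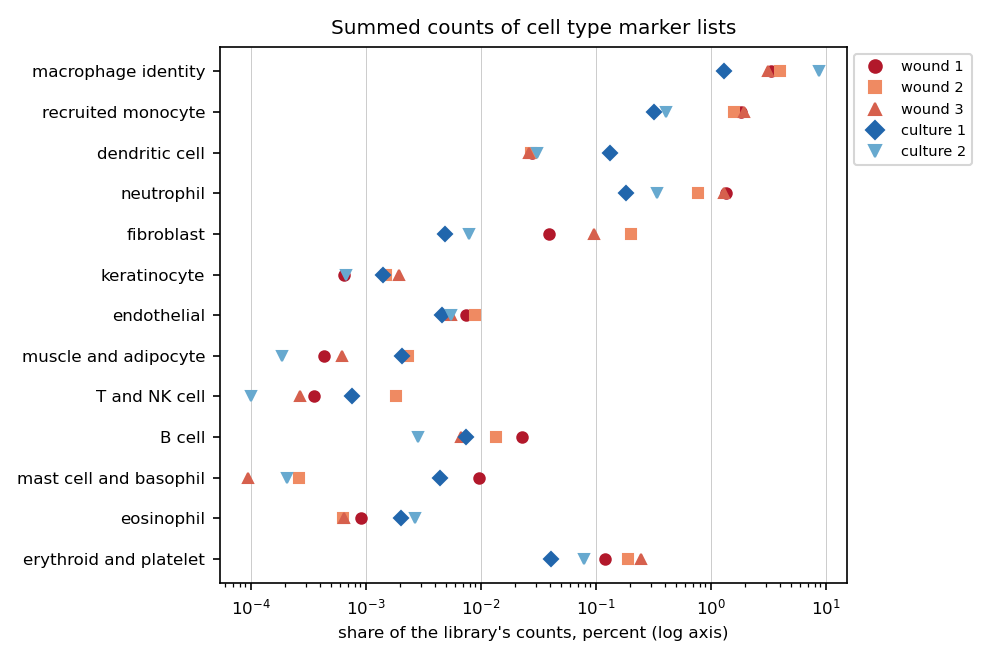
Share of each library's counts, in percent on a log axis, taken by the summed genes of 13 marker lists; each symbol is 1 library. The 3 wound libraries lie above both culture libraries for recruited monocyte, neutrophil and fibroblast markers, and between the culture libraries for macrophage identity genes.

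Genes of recently recruited monocytes were partly higher in the wound. Of 20 tested, 7 were large calls higher in the wound and 0 lower (3.01 and 2.47% of all genes), 14 were at least 4-fold higher without overlap (7.26% of all genes), and the median log2 fold change was 2.59. Plac8, a gene expressed in Ly6C-high monocytes, was at 854, 414 and 270 CPM in the wound and 0.439 and 0.0885 in culture. It was highest in wound library 1, and all 3 wound values were far above both culture values. Ms4a4c, a membrane protein gene of the same monocytes, was at 954, 381 and 283 CPM against 5.35 and 4.12. F13a1, which encodes the A subunit of coagulation factor XIII, was at 1874, 1839 and 2480 CPM against 56.3 and 18.8. Ly6c2, the gene of the Ly6C surface marker, was at 537, 195 and 146 CPM against 27.8 and 22.4. Ccr2, the receptor that brings monocytes out of the marrow, was at 1984, 1197 and 687 CPM against 76.4 and 219 without passing (edgeR, adjusted p = 0.056). Cx3cr1, the fractalkine receptor gene, was at 99.0, 70.7 and 37.1 CPM against 4.27 and 15.3, also without passing (0.062). The list was highest in wound library 1 for 12 of its 20 genes. Some genes of recruited monocytes are also expressed by neutrophils, whose markers took 0.782 to 1.36% of wound counts against 1.59 to 1.94% for the recruited monocyte list.

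Inflammatory cytokine and enzyme genes were called higher in the wound for 14 of 26 tested, with a median equal to that of the interferon-stimulated genes given below. All 14 were large calls (3.01% of all genes) and 0 were called lower, and 23 were at least 4-fold higher without overlap (7.26% of all genes). The median was 3.82 (4.76 against culture 2 alone and 4.41 against culture 1 alone). Il1b, which encodes interleukin 1 beta (GRCm39 chromosome 2, 129206490 to 129213059), was at 4533, 3559 and 5430 CPM in the wound and at 38.1 and 38.8 in culture. That is 4507 ± 936 CPM (SD, n = 3) against 38.5 ± 0.445 (n = 2), a 117-fold difference in which the culture libraries were nearly equal (edgeR, adjusted p = 0.014). Tnf, tumour necrosis factor, was at 424, 1009 and 1602 CPM against 36.5 and 30.2. Ptgs2, the inducible cyclooxygenase of prostaglandin synthesis, was at 1829, 2155 and 4777 CPM against 37.3 and 18.5. Il1a was at 1006, 1677 and 3747 CPM against 19.9 and 86.8. Il23a, a subunit of interleukin 23, was at 121, 290 and 537 CPM against 0.918 and 0.0885. Il10, an anti-inflammatory cytokine gene, was high in the same libraries, at 174, 291 and 162 CPM against 1.56 and 0.575. Nos2, the inducible nitric oxide synthase, was at 20.4, 49.7 and 137 CPM against 1.44 and 0 and did not pass (edgeR, adjusted p = 0.057). Il12b, the shared subunit of interleukins 12 and 23, was the 1 member with a negative value, at 0.775, 0.677 and 0.947 CPM against 10.4 and 2.57, without passing (0.066). Wound library 3 was the highest of the wound libraries for 20 of the 26 genes. Neutrophils also express Il1b and other members, and their markers were higher in the same 3 libraries.

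Of 11 colony-stimulating factor and receptor genes tested, 3 were large calls higher and 0 lower, with a median of 0.03. Csf2, which encodes GM-CSF itself, was at 1.34, 8.28 and 23.7 CPM in the wound and had no count in culture, at least 167-fold higher against the floor of 3 counts. Csf3, granulocyte colony-stimulating factor, was at 107, 178 and 187 CPM against 0.758 and 0. The GM-CSF receptor chains did not pass, with Csf2ra at 717, 677 and 663 CPM against 913 and 1033 and Csf2rb at 668, 603 and 599 CPM against 3516 and 840. The culture values of both receptor chains were above all wound values. Csf3r, the receptor for Csf3 and a neutrophil marker, was the 1 receptor with a large call, at 559, 288 and 460 CPM against 29.8 and 74.1.

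Chemokine ligands differed in both directions. Of 25 tested, 9 were large calls higher in the wound and 2 lower (3.01 and 2.47% of all genes), with a median of 3.47. Ccl8, a monocyte-attracting ligand (chromosome 11, 82006011 to 82007625), showed the greatest difference of the named genes, at 490, 489 and 347 CPM in the wound and 0 and 0.0443 in culture. The culture value is a single count, which gives a ratio of 21300 with a 95% counting interval of 3830 to 842000. The neutrophil-attracting ligand Cxcl2 was at 5880, 6851 and 12442 CPM against 238 and 440, and Cxcl1 at 867, 1431 and 1462 CPM against 36.5 and 35.4. Ccl3 and Ccl4, macrophage inflammatory proteins, were at 944, 1394 and 1972 CPM against 65.4 and 230, and at 1304, 990 and 1568 CPM against 11.8 and 49.5. The 2 lower ligands were Ccl22 and Ccl17, which act on CCR4 and mark activated dendritic cells and alternatively activated macrophages. Ccl22 (chromosome 8, 95472218 to 95478327) was at 2.84, 2.18 and 2.66 CPM in the wound and 197 and 105 in culture, a 59.0-fold difference (edgeR, adjusted p = 0.012). Ccl17 was at 1.19, 0.581 and 0.651 CPM against 8.18 and 16. For both genes the groups were far apart and the wound libraries close together.

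Of 12 chemokine receptor genes tested, 4 were large calls higher and 1 lower (3.01 and 2.47% of all genes), with a median of 3.09. Cxcr4, the receptor for CXCL12, was the most even of them, at 115, 110 and 114 CPM against 10.9 and 10.4. Ackr3, a scavenging receptor for the same ligand, was at 26.3, 50.3 and 92.7 CPM against 0.439 and 0. Ccrl2, which binds chemerin, was at 1598, 1569 and 2033 CPM against 46.4 and 114. The fourth was Cxcr2, given above with the neutrophil markers. Ccr7, which guides dendritic cells to lymph nodes, was lower, at 11.7, 18.9 and 9.53 CPM against 85.9 and 35.2.

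Interferon-stimulated genes were called higher in the wound for most members. Of 32 tested, 21 were large calls higher (3.01% of all genes) and 0 lower, and 29 were at least 4-fold higher without overlap (7.26% of all genes). All 32 had positive values, and the median was 3.82 with 3.80 to 4.27 against single culture libraries. Irf7, the transcription factor that amplifies interferon production, was at 1002, 395 and 519 CPM in the wound against 4.67 and 12.4 in culture. Rtp4, a negative regulator of interferon responses, was at 708, 198 and 280 CPM against 4.39 and 13.3. Ifitm3, which restricts virus entry, was at 2313, 1296 and 1291 CPM against 200 and 200. Ifi204, a nucleic acid sensor gene, was at 665, 319 and 381 CPM against 8.06 and 23.3. Wound library 1 was the highest wound library in 31 of the 32 genes, and the list took 0.936% of its counts against 0.393 and 0.429% in wound libraries 2 and 3 and 0.0611 and 0.0667% in culture. Without wound library 1 the list median was 3.33 and 25 genes were at least 4-fold higher without overlap.

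Genes induced by low oxygen through hypoxia-inducible factor gave positive values in all 24 tested, of which 8 were called. Of the 24, 7 were large calls higher (3.01% of all genes) and 0 lower. At least 4-fold higher without overlap were 14 (7.26% of all genes), and the median was 2.43. Hilpda, which inhibits the lipase of lipid droplets, was at 669, 797 and 1244 CPM against 23.6 and 42.3. Bnip3, a receptor for removal of mitochondria, was at 345, 311 and 696 CPM against 11.9 and 24.4. Ero1l, the oxidase of the endoplasmic reticulum now also named Ero1a, was at 445, 501 and 1528 CPM against 79.9 and 85.6. Ndrg1 was at 91.6, 118 and 211 CPM against 20.0 and 8.10. Vegfa, the angiogenic factor, was at 36.5, 42.9 and 51.3 CPM against 12.3 and 3.36 and did not pass (edgeR, adjusted p = 0.058). Wound library 3 was the highest wound library for 22 of the 24 genes, and the list took 0.846% of its counts against 0.525 and 0.564% in wound libraries 1 and 2 and 0.152 and 0.187% in culture. Of 22 glycolysis genes, many of which hypoxia-inducible factor also induces, 2 were large calls higher and 0 lower, with a median of 1.14 (0.87 against culture 2 alone, 1.72 against culture 1 alone). Tpi1, triosephosphate isomerase, was at 701, 703 and 1127 CPM against 60.8 and 165. Pfkfb3, which makes the activator of phosphofructokinase, was at 191, 183 and 331 CPM against 43.2 and 50. Here too wound library 3 was highest, for 20 of 22 genes.

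Hypoxia-inducible factor binds DNA at a short core, ACGTG, read on either strand (the reverse complement is CACGT, and the palindrome CACGTG holds both). In the RefSeq promoter table of GRCm38.p6, which covers 250 bases before and 50 after each start, 58.1% of 31 promoters of hypoxia list genes and 54.5% of 33 promoters of glycolysis genes held the core, against 19.6% of all 32851 promoters. The table held 21 genes of each list. The lists were drawn from known targets, so this share describes the lists and not the cells. Upstream stretches of 60 bases from promoters of 4 of the large calls are shown on the gene's strand because they carry the core near the start of genes that differed together, with the core in capitals.
Bnip3 (chr7:138909582-138909641, minus strand): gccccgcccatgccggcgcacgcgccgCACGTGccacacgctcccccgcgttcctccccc
P4ha2 (chr11:54100818-54100877, plus strand): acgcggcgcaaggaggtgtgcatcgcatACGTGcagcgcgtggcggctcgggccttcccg
Ero1l (chr14:45318604-45318663, minus strand): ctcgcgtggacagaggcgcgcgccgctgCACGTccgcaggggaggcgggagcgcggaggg
Ddit4 (chr10:59951926-59951985, minus strand): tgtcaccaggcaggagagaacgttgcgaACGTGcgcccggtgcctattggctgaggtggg
P4ha2, a prolyl hydroxylase of collagen, and Ddit4, an inhibitor of the growth kinase mTORC1, had log2 fold changes of 3.99 and 2.60. In Bnip3 the core reads as the full palindrome. A match describes letters in the window and not a bound site.

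Repair and alternative activation genes that were large calls were mostly higher in the wound. Arg1, arginase, which turns arginine into ornithine (chromosome 10, 24791119 to 24803382), was at 2763, 2706 and 5939 CPM in the wound and 1.68 and 5.13 in culture, 1117-fold higher (edgeR, adjusted p = 0.016). Of 22 alternative activation genes tested, 8 were large calls higher and 1 lower (3.01 and 2.47% of all genes), with a median of 1.87. For a list of this size, 1 lower call is near the share of all genes. Tgm2, transglutaminase, was at 304, 388 and 478 CPM against 26.1 and 37.0, and Klf4, a transcription factor gene, at 254, 286 and 297 CPM against 21.7 and 55.4. Folr2, a folate receptor of tissue-resident macrophages that was chosen after its values were seen, was at 37.0, 22.4 and 29.1 CPM against 0.0399 and 0.133. Socs2, a feedback inhibitor of cytokine signalling that GM-CSF induces, was lower, at 6.56, 7.77 and 5.27 CPM against 47.5 and 25.2. In the arginine and polyamine list of 14 genes, Arg1 and Odc1 were the 2 large calls. Odc1, ornithine decarboxylase, the enzyme after arginase on the way to polyamines, was at 86.7, 129 and 93.7 CPM against 30.1 and 16.

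Among 29 tested growth factor and matrix signal genes, 8 were large calls higher in the wound and 1 lower, with a median of 1.34. The shares of all genes were 3.01 and 2.47%, and 1 lower call is near the latter. Hbegf, a ligand of the epidermal growth factor receptor, was at 34.1, 64.3 and 64.0 CPM against 0.638 and 1.73. Inhba, which encodes the activin A subunit, was at 200, 275 and 502 CPM against 8.18 and 8.59. F3, tissue factor, which starts coagulation, was at 44.9, 44.0 and 124 CPM against 2.07 and 2.57, and Serpinb2, an inhibitor of plasminogen activators, at 217, 475 and 1063 CPM against 31.5 and 58.1. The lower one was Tgfb1, transforming growth factor beta 1, at 8.57, 11.2 and 9.97 CPM in the wound against 71.9 and 44.0 in culture. Spp1, osteopontin, was at 4487, 5824 and 8592 CPM against 134 and 1098 and did not pass (edgeR, adjusted p = 0.10). Of 17 matrix metalloproteinase and inhibitor genes, 3 were large calls higher and 0 lower. Mmp9, gelatinase B and a neutrophil marker, was at 258, 193 and 347 CPM against 44.4 and 17. Timp1, an inhibitor of these proteases, was at 37.8, 71.8 and 53.7 CPM against 0.678 and 4.87. In the opposite direction Mmp12, macrophage elastase, was at 312, 426 and 1148 CPM in the wound and 4427 and 3726 in culture without passing (0.062). The list as a whole took 0.171 to 0.326% of wound counts and 0.75 and 0.862% of culture counts, although 11 of its 17 genes had positive values.

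Immediate early genes, which respond within minutes to many stimuli, had 9 large calls higher among 27 tested and 0 lower, with a median of 2.03. Nr4a1, an orphan nuclear receptor, was at 1195, 839 and 1303 CPM against 58.3 and 90.5. Klf6 was at 2618, 2354 and 3615 CPM against 292 and 590, and Ier3 at 1080, 971 and 1679 CPM against 19.8 and 107. The class was not uniform, since 4 of the 27 genes had negative values. Of 14 heat shock genes 2 were large calls, both copies of the inducible HSP70 gene. Hspa1a was at 85.3, 113 and 295 CPM against 0.399 and 3.67, and its near-identical neighbour Hspa1b at 3.56, 7.11 and 16.2 CPM against 0.199 and 0.0885, so reads may be split between them.

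**Figure D3:**
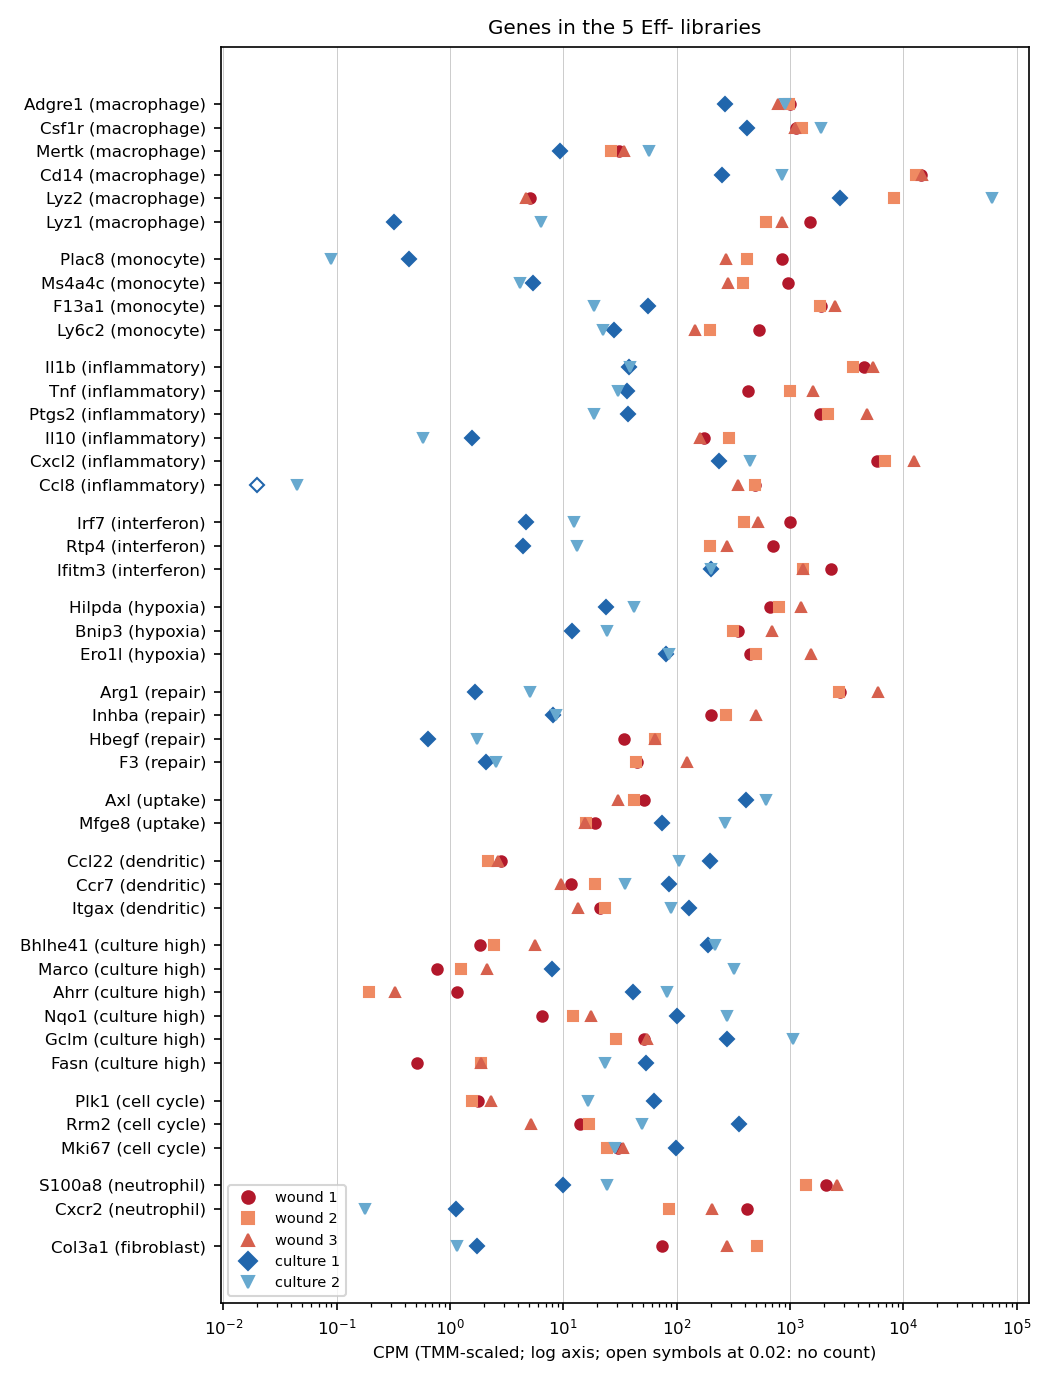
CPM of named genes on a log axis in the 5 Eff- libraries (reds: wound 1 to 3; blues: culture 1 and 2; the open symbol at the left marks no count). Il1b, Arg1 and Ccl8 are far to the right in all 3 wound libraries, Axl, Ccl22 and Bhlhe41 far to the left, and Csf1r, Mertk and Lyz2 overlap between the groups.

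The genes of apoptotic cell uptake did not move as 1 group. Of 23 receptors and bridging proteins tested, 2 were large calls higher in the wound and 2 lower (3.01 and 2.47% of all genes), with a median of 0.76. The lower ones were Axl and Mfge8. Axl, a receptor tyrosine kinase that binds Gas6 (chromosome 7, 25456698 to 25488130), was at 51.5, 42.2 and 30.3 CPM in the wound and 407 and 618 in culture, 12.4-fold lower (edgeR, adjusted p = 0.016). Mfge8, a secreted bridge to integrins, was at 19.0, 16 and 15.4 CPM against 74.5 and 269, 10.2-fold lower (adjusted p = 0.024). Mertk, the related receptor kinase, was at 31.1, 26.6 and 34.2 CPM against 9.42 and 56.6, so the wound values lay between the culture values (log2 fold change -0.11, SE 0.67). Tyro3, the remaining kinase of the family, was at 0 to 0.296 CPM in the wound and 0.718 and 0.0443 in culture. The ligand Gas6 was at 142, 139 and 95.0 CPM against 3.27 and 123 and did not pass. The higher ones were Cd14, given above, and Cd300lf, a lipid-binding inhibitory receptor, at 693, 377 and 648 CPM against 83.6 and 135. C1qa, C1qb and C1qc, the chains of the opsonin C1q, were 0.79 to 2.07 on the log2 scale without passing, and C1qa was at 770, 800 and 642 CPM against 59.6 and 292. By their labels these cells had not engulfed apoptotic cells in either group. Whether any had taken up unlabelled dying cells was not tested.

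Scavenger receptors, which take up modified lipoprotein and microbes, had 3 large calls higher and 1 lower among 18 tested (3.01 and 2.47% of all genes). Olr1, a receptor for oxidised lipoprotein, was at 90.5, 132 and 194 CPM against 14.9 and 12.6. Marco, a receptor for bacteria and particles that alveolar macrophages carry, was at 0.775, 1.26 and 2.13 CPM in the wound and 8.02 and 320 in culture, so most of its difference came from culture 2. Cd36, which binds fatty acids and apoptotic cells, was at 515, 494 and 1084 CPM against 317 and 468 without passing (log2 fold change 0.83, SE 0.52).

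Genes associated with GM-CSF and PPAR gamma did not move as a list, with 1 large call higher, Olr1, and 3 lower among 24 tested, and a median of 0.46 (1.36 against culture 1 alone and -0.81 against culture 2 alone). The lower ones were Bhlhe41, Marco and Itgax. Bhlhe41, a transcription factor of self-renewing alveolar macrophages (chromosome 6, 145803969 to 145811284), was at 1.83, 2.47 and 5.65 CPM in the wound and at 189 and 216 in culture, 61.1-fold lower (edgeR, adjusted p = 0.014). Itgax, which encodes CD11c, was at 21.1, 23.4 and 13.4 CPM against 128 and 89.8. Pparg itself was at 27.9, 16 and 11.2 CPM against 3.59 and 17.6, and its target Fabp4 at 48.6, 43.9 and 10.9 CPM against 0.638 and 51.7. Both overlapped between groups. Fabp4 was 0.40 on the log2 scale and -0.61 without culture 1. Gpnmb, a glycoprotein of lipid-laden macrophages, was at 452, 407 and 908 CPM against 1283 and 15258 and did not pass (0.076).

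The dendritic cell list had 5 large calls lower in the wound and 1 higher among 20 tested, with a median of -1.55. That median was -1.53 against culture 1 alone and 0.23 against culture 2 alone, and 18 of the 20 genes were higher in culture 1 than in culture 2. The lower ones were Ccl22, Ccl17 and Ccr7, given above, and Fscn1 and Cacnb3, genes of mature migrating dendritic cells. Fscn1, an actin bundler, was at 1.03, 5.23 and 3.14 CPM in the wound against 67 and 15.8. Cacnb3, a calcium channel subunit, was at 0.465, 1.31 and 1.04 CPM against 42.6 and 9.12. The higher one was Xcr1, a receptor of conventional type 1 dendritic cells, at 7.13, 15.1 and 5.83 CPM against 0.758 and 0.708. The MHC class II list did not move in 1 direction. Of 16 tested, 11 had positive and 5 negative values. At least 4-fold without overlap were 5 higher and 2 lower (7.26 and 8.44% of all genes). Large calls were 3 higher and 0 lower, namely Cd83, Cd86 and Ifi30, which serve activation, costimulation and antigen processing and are not class II chains. Apart from Ciita, the negative members were H2-Eb2 (-3.56), H2-DMb2 (-2.49), H2-Oa (-2.04) and H2-Ob (-1.5), none of them called. Cd83 was at 3043, 2764 and 1649 CPM against 105 and 38.8, and Cd86 at 416, 438 and 292 CPM against 72.2 and 62.4. H2-Ab1, a class II chain, was at 5753, 7834 and 2454 CPM against 3169 and 784, and the invariant chain Cd74 at 12298, 15938 and 5578 CPM against 6922 and 5205. Neither passed (log2 fold changes of 1.44 and 0.89), and in both wound library 3 was the lowest wound library. Ciita, their master regulator, was at 28.9, 26.7 and 9.50 CPM against 149 and 16.9, and its log2 fold change of -1.94 was 0.34 without culture 1.

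**Figure D4:**
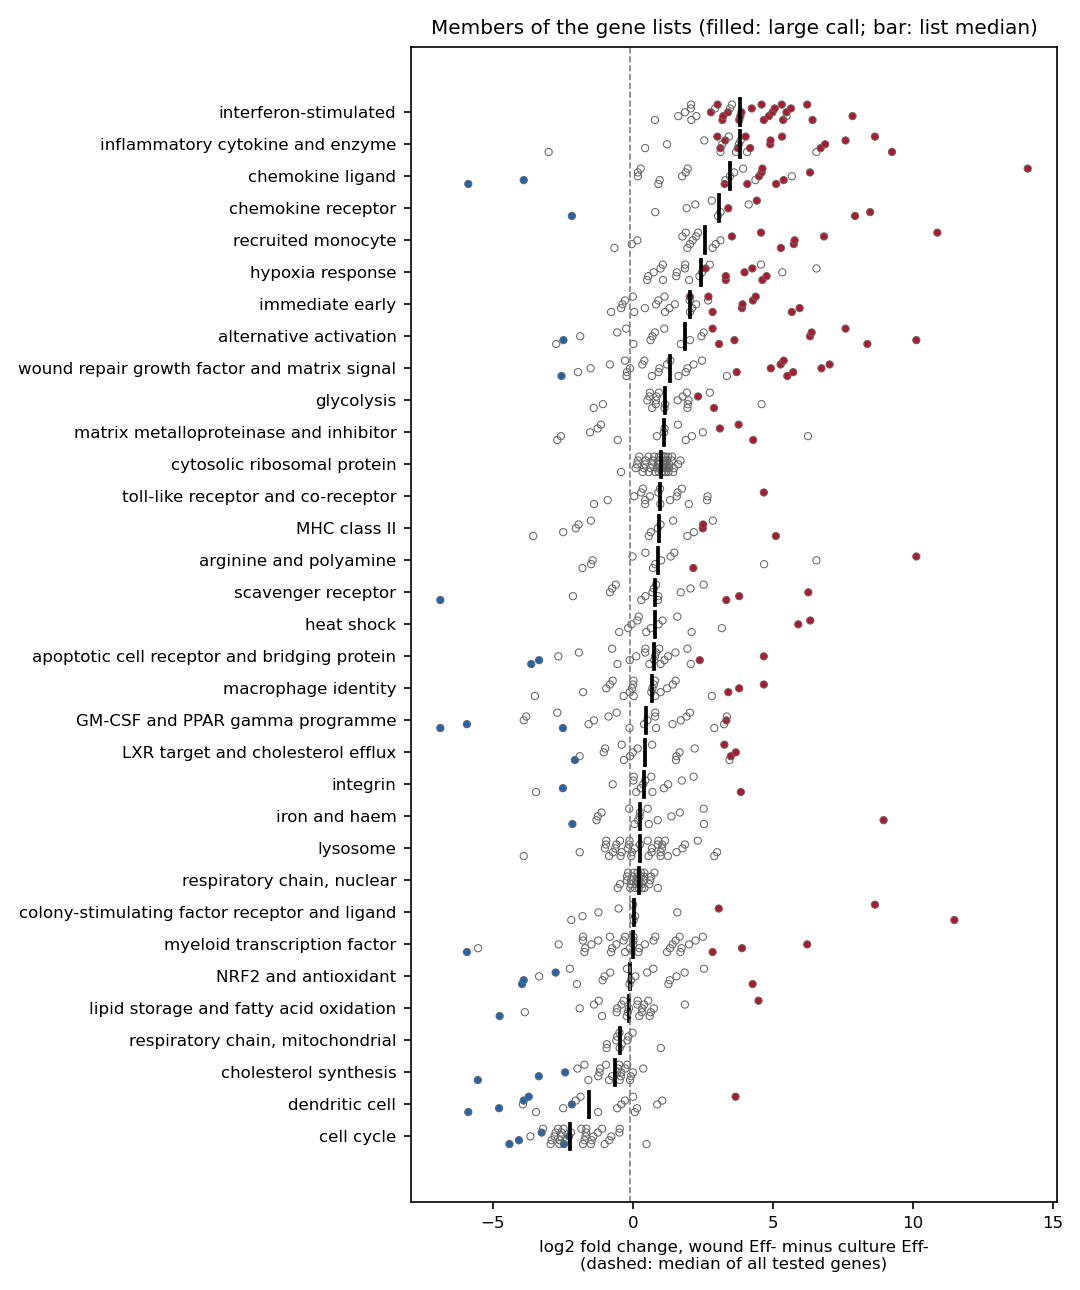
Log2 fold change, wound minus culture, of each tested member of 33 gene lists ordered by median (black bar); filled points are large calls, red higher and blue lower, and the dashed line is the median of all tested genes, -0.12. Interferon-stimulated and inflammatory lists stand at the top with medians of 3.82, and the cell cycle list at the bottom with -2.24.

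A few genes of sterol synthesis were called lower in the wound, as was Fasn of fatty acid synthesis. Of 24 cholesterol synthesis genes tested, 3 were large calls lower and 0 higher, 22 had negative values, and the median was -0.65. Lss, lanosterol synthase, was at 2.09, 2.78 and 2.16 CPM in the wound against 13.4 and 34.9, and Sqle, squalene epoxidase, at 7.72, 18.8 and 19.1 CPM against 65.3 and 98.3. Of 25 lipid storage and oxidation genes 1 was a large call in each direction, near the 3.01% higher and 2.47% lower of all genes. Fasn, fatty acid synthase, was at 0.516, 1.86 and 1.89 CPM in the wound against 53.8 and 23.4, and Dgat2, which makes triglyceride, at 89.2, 73.2 and 130 CPM against 5.90 and 2.74. Acaca and Acly, also of fatty acid synthesis, were -1.9 and -0.14 on the log2 scale and did not pass. Of 18 LXR target and cholesterol efflux genes 3 were large calls higher, Abca1, Pltp and Abca9, and 1 lower, Soat1. Abca1, the cholesterol exporter, was at 241, 348 and 436 CPM against 15.1 and 38.1, and Pltp, a phospholipid transfer protein, at 283, 261 and 258 CPM against 7.38 and 39.9. Soat1, which esterifies cholesterol for storage, was at 380, 328 and 425 CPM against 2005 and 1163. Apoe, apolipoprotein E, was at 16113, 15250 and 13262 CPM in the wound but at 91.8 in culture 1 and 6328 in culture 2, and with that gap did not pass (edgeR, adjusted p = 0.41).

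Antioxidant genes under the transcription factor NRF2 had 3 large calls lower and 1 higher among 21 tested (2.47 and 3.01% of all genes). Their median was -0.12, that of all genes. Nqo1, a quinone reductase, was at 6.45, 12.3 and 17.5 CPM in the wound against 99.9 and 277. Gclm, a subunit of the enzyme that starts glutathione synthesis, was at 51.4, 28.9 and 54.7 CPM against 277 and 1070. Cat, catalase, was at 82.2, 75.4 and 99.4 CPM against 242 and 918. Mt2, a metallothionein, was the higher one, at 3.67, 8.66 and 15 CPM against 0.359 and 0.575. Among 17 iron and haem genes, Steap4, a metalloreductase, was the 1 large call higher, at 137, 78.7 and 127 CPM against 0.439 and 0. Slc40a1, the iron exporter ferroportin, was the 1 lower, at 78.5, 31.3 and 67 CPM against 234 and 294. For a list of this size, 1 call in each direction is near the 3.01 and 2.47% of all genes. Ahrr, the repressor of the aryl hydrocarbon receptor, was at 1.16, 0.194 and 0.325 CPM in the wound and 41.3 and 82.4 in culture, a fall of 109-fold outside the lists.

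Cell cycle genes gave values below 0 in 35 of 36 tested, and most did not pass the test. Of the 36, 6 were called lower and 5 were large calls lower and 0 higher, 18 were at least 4-fold lower without overlap (8.44% of all genes), and the median was -2.24. The median was -2.51 against culture 1 alone and -1.35 against culture 2 alone, where 7 were at least 4-fold lower without overlap, and 29 of the 36 genes were higher in culture 1 than in culture 2. Plk1, the mitotic polo-like kinase, was at 1.76, 1.57 and 2.28 CPM in the wound against 63.2 and 16.4. Rrm2, a ribonucleotide reductase subunit, was at 13.9, 16.9 and 5.15 CPM against 355 and 49.8, and Ccne1, cyclin E1, at 2.84, 4.4 and 3.79 CPM against 50.4 and 20.1. Ccnb2, cyclin B2, was the most even, at 12.0, 13.9 and 5.80 CPM against 59.4 and 57.4. Mki67, the common proliferation marker, was at 30.2, 24.5 and 33.9 CPM against 98.7 and 28.3 and overlapped between the groups.

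Several lists held no large call, which does not show equal levels. None of 49 cytosolic ribosomal protein genes was called, although 48 had positive values with a median of 1.01, and 47 of them were highest in wound library 2. None of 37 lysosome genes was called (median 0.25, and -0.06 with library totals only). None of 31 nuclear respiratory chain genes (0.21, and -0.12 with totals only) and none of 11 mitochondrial ones (-0.47) was called. Of 19 toll-like receptor and co-receptor genes only Cd14 was called. The integrin list had 1 large call in each direction among 16 tested, near the 3.01% higher and 2.47% lower of all genes. Itgax was lower and Vcam1, an adhesion ligand, higher at 20.8, 50.8 and 26.1 CPM against 3.39 and 1.06. Of 38 myeloid transcription factors, Irf7, Nr4a1 and Klf4 were large calls higher and Bhlhe41 lower, with a median of 0.02 (-0.26 with totals only).

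Outside the lists, several of the greatest falls were uneven between the culture libraries. Asgr2, a lectin receptor chain, was at 0.852, 0.436 and 0.651 CPM in the wound against 248 in culture 1 and 2.43 in culture 2. Hlx, a homeobox factor, was at 25.6, 9.07 and 12.5 CPM against 1000 and 98.3, and Cit, citron kinase, at 0.981, 0.774 and 0.355 CPM against 179 and 7.04. Plxdc2, a plexin domain protein gene, was higher in culture 2, at 4.85, 8.20 and 5.77 CPM against 45.6 and 339. Of the 410 genes of large lower calls 243 were higher in culture 1 than in culture 2. The range within the culture group exceeded 2 on the log2 scale in 479 of 3272 well-expressed genes (14.6%), against 24 of 3341 (0.718%) within the wound group. Rtn1, a reticulon, was among the genes of widest range in culture, at 107 and 0.797 CPM. Within the wound group the widest ranges were those of Lyz2, of Col1a2, Col3a1 and Thbs2, matrix genes highest in library 2, and of Ifit3b, an interferon-stimulated gene highest in library 1 at 118 CPM against 10.6 and 21.8.

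**Figure D5:**
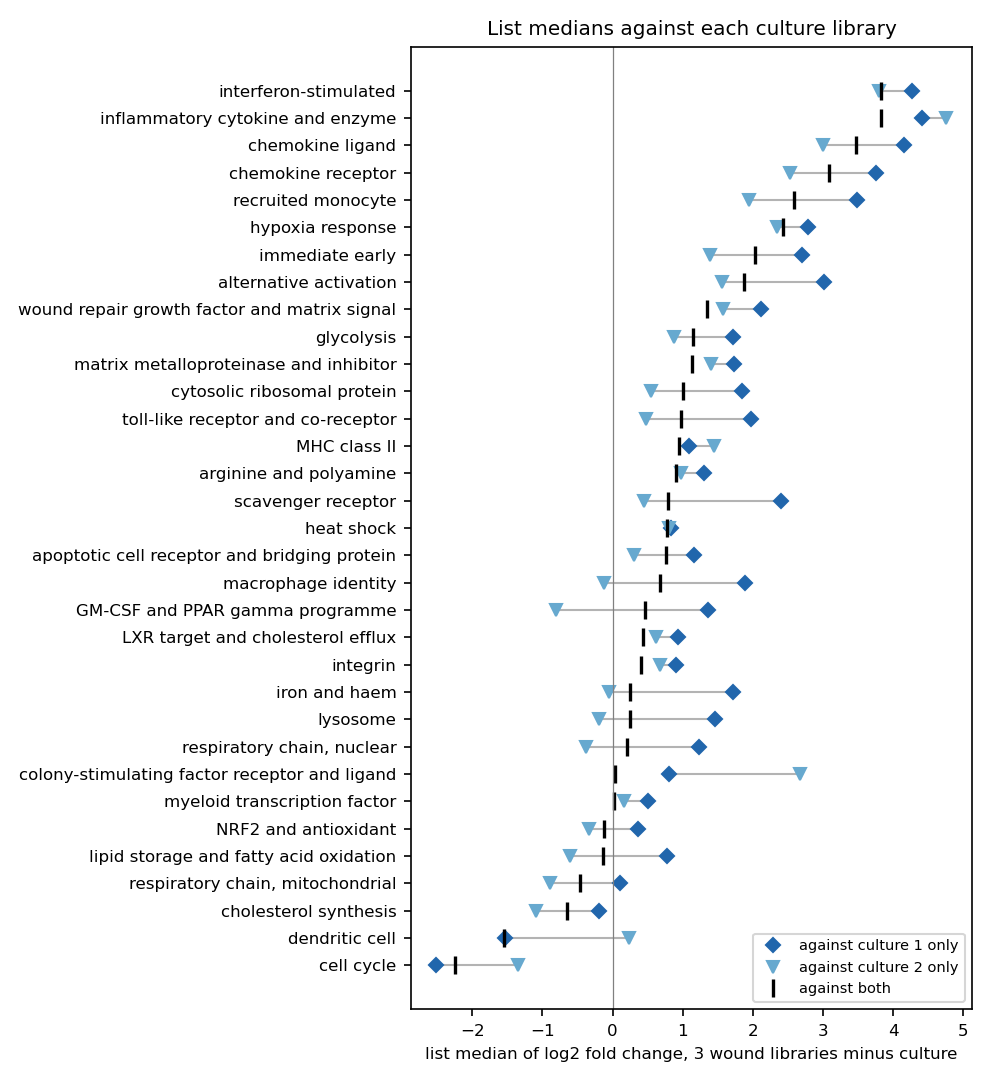
Median log2 fold change of each of 33 gene lists for the 3 wound libraries against culture 1 alone (diamonds), culture 2 alone (triangles) and both (bars), each over the genes tested in that fit. The interferon-stimulated, inflammatory and hypoxia medians stay between 2.35 and 4.76, whereas macrophage identity (1.89 and -0.12), lysosome (1.46 and -0.19) and dendritic cell (-1.53 and 0.23) medians change sign between the culture libraries.

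The same wound and culture contrast was available in cells that had engulfed apoptotic cells (Eff+), in libraries shared with none of those above, although both sorts may come from the same animals or cultures. Of the 909 large calls, 901 had the same direction there, 750 were also called and at least 4-fold, and 8 had the opposite direction. The matching shares over all tested genes were not determined, and tissue and count table split the Eff+ libraries in the same way. Lyz2 was at 6.01, 4115 and 10.4 CPM in wound Eff+ libraries 1, 2 and 3, high only in library 2 as in Eff-. The counts are therefore no independent check. Arg1 had a log2 fold change of 10.13 in Eff- and 7.91 in Eff+, Irf7 6.23 and 6.23, Hilpda 4.78 and 4.60, Axl -3.63 and -3.66, and Bhlhe41 -5.93 and -7.38. Il1b was 6.87 in Eff- and 10.83 in Eff+, and the neutrophil list had medians of 3.81 and 8.30. The 2 migratory dendritic cell genes Ccr7 (-2.18 and 1.68) and Fscn1 (-3.72 and 1.30) were among the 8 of opposite direction. A test of the difference between the contrasts called 0 of 20270 genes by edgeR, whose smallest adjusted p was 0.10 while 2222 genes were under 0.05 before adjustment. That fit did not pair Eff- and Eff+ libraries of the same number, and with the number as a block edgeR also called 0. DESeq2 called 797, among which Il1b had the smallest adjusted p (a difference of -4.06 on the log2 scale, adjusted p = 2e-23). Whether the contrasts differ thus depended on the tool. A fit without culture Eff- library 2 held 1 library of that group, so its count of calls is not given.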

How the data were processed

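RNA-seq read counts per gene were deposited as 1 table for wound and 1 for culture libraries. Per the file headers, the wound counts were made with featureCounts 1.6.0 at its default settings, without a strand option, on the Ensembl 106 annotation of GRCm39. The submitters' processing notes name Trimmomatic 0.39, while the aligner, and the counting command of the culture table, were not stated in the sources used. The tables were joined on gene identifier (55414 genes, of which 52133 carry names and 99.92% of the counts). Another 4 columns of the culture table matched no labelled sample and were not used. Genes kept by filterByExpr were fitted with edgeR 4.0.16 (trimmed mean of M-values, quasi-likelihood test, Benjamini-Hochberg adjustment) in R 4.3.3. Fitted differences are log2 fold changes, and each SE was obtained as the absolute log2 difference over the root of F. A group with no count was set to a floor of 3 counts over the group, and intervals and floors cover counting error only. DESeq2 1.42.0, limma-voom 3.58.1, other scalings and filters, a replicate block and leaving out each library were the alternatives.

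The text names the 15 genes of greatest fold change in each direction with a mean of at least 50 CPM, up to 4 large calls per list and direction, fixed genes, and the 5 of widest range in each group. Members and lists were chosen with earlier results of these data known. C1qa, C1qb, C1qc, Cd68, Ddit4, Elane, Gas6, Gpnmb, Il12b, Ly6g, Mmp12, Mpo, P4ha2, Pecam1, Tyro3, Krt5, Krt14 and Cd3e were added after their values were seen. In simulated data of this size with 15084 genes, 28% of 4-fold and 85% of 16-fold changes were recovered, and 13 unchanged genes were called. The simulation gave each gene the same spread in both groups, whereas the real culture libraries varied more than the wound libraries. Its rates may therefore not hold for these data. Values of a few genes the naming rule covers are not reported here.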

Additional observations from a re-analysis of the deposited data

How the results depend on the processing

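Relative log expression and upper quartile scaling, limma-voom, a filter of 1 CPM in 2 libraries and protein-coding genes alone left the counts of higher and lower calls, large or not, within 1.5 times of 567, 584, 499 and 410. Calls higher, lower, large higher and large lower were 1510, 1809, 935 and 933 with DESeq2, 1118, 1558, 845 and 811 without a filter on low counts, and 1136, 1299, 774 and 704 with all 10 libraries in 1 fit. Library totals gave 977 lower and 718 large lower calls. Leaving out 1 library gave 0 to 2379 higher, 0 to 1741 lower, 0 to 1263 large higher and 0 to 1080 large lower calls, the 0 without any 1 wound library and the highest without culture 2; without culture 1 they were 1114, 1055, 779 and 510. The cause was not tested. None of the 909 large differences changed sign in any of these settings. They were selected for no overlap between the groups, which leaves little room for a change of sign. With the replicate number as a block, 616 genes were called higher and 453 lower, and 716 of the 909 were large calls. Same-numbered wound and culture libraries deviated with correlations of -0.06 and -0.01. These cannot decide whether the numbers pair the samples, since the deviations of 2 culture libraries mirror each other. The difference between the Eff- and Eff+ contrasts was called for 797 genes with DESeq2, 517 without a filter, and 0 to 2009 when 1 library was left out. Signs reversed for 6 named genes that were not called. When 1 library was left out, their log2 fold changes ranged from -0.71 to 1.56 for Csf1r (-0.23 with totals), -0.91 to 1.77 for Mertk (0.43 with limma-voom, 0.31 with the block), -0.61 to 5.82 for Fabp4, -2.71 to 0.34 for Ciita, -1.67 to 0.04 for Mki67 and -12.63 to 0.11 for Lyz2, with culture 1 or 2 left out at both ends of each range except the lower end for Lyz2 (wound 2 left out). Over 44 lists and 15 alternatives, medians changed sign in 17 lists. At a depth of 17622740 counts or more per library, 3 counts over the culture group limit what a group at 0 can show.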

Other observations

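Ranked per length, the wound cells had genes of lipopolysaccharide sensing, iron storage, lipid transport and antigen presentation at the top. Among protein-coding nuclear genes Cd14 was first with 8093 ± 513 CPM per kb (SD, n = 3), followed by Ftl1, the ferritin light chain, Apoe, Cd74, B2m, the light chain of MHC class I, and Ctss, a lysosomal protease that trims the invariant chain. Of these 6 genes only Cd14 passed the test against culture. Nfkbia, the inhibitor of NF-kappa B and itself a target of that factor, ranked 10 with 3893 ± 1096 CPM per kb against a culture mean of 148, a log2 fold change of 4.72 (edgeR, adjusted p = 0.020). These genes were chosen after their values were seen.

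In culture the same ranking was led by Lyz2, with 2084 CPM per kb in culture 1 and 45860 in culture 2, and by Actb, beta-actin, with 11380 and 4248. Gm10800, a predicted gene model, ranked 3 with 13850 in culture 1 and 1.811 in culture 2. In culture 1 it lay above both Lyz2 and Actb.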
